A study of Mus musculus with 18 samples.

Results

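LOC102640133, Ahcy, Phf20, Sox12, Cd28, Ankrd36, Cda and Ehd4 are 8 of the 15224 genes measured in mouse quadriceps muscle that were picked because their levels separated muscle of floxed control mice from muscle of Cre control mice, several of them near Pofut1 on chromosome 2. The difference between these controls is therefore what chose the genes, and it is given below as a description with no test. The study profiled C57/Bl6 mice by RNA sequencing to ask what loss of Pofut1, the enzyme that adds O-fucose to EGF-like repeats of Notch receptors and other proteins, changes in young and old muscle. Floxed controls (Pofut1flox/flox) had 2 Pofut1 alleles that Cre recombinase can delete, and lacked Cre. In Cre controls, Pofut1 was wild type and a transgene expressed Cre from the promoter of skeletal alpha actin, a protein of muscle fibres. Knockout mice carried the floxed alleles and the Cre transgene, so deletion is limited to cells in which that promoter is active. Each genotype was sampled at 2 months (young) and 17 months (old), with 3 libraries per genotype and age and 18 libraries in all. Libraries are named by genotype, age and the number in their labels. The labels do not state that each library came from a separate mouse, so the p-values measure the spread between these libraries.

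Each control genotype shares 1 engineered locus with the knockout: floxed mice share its Pofut1 alleles and Cre mice share its transgene. As background, an engineered allele in mice is inherited together with the chromosome stretch around it, because genes close to each other are rarely separated by recombination. For how the lines used here were made and crossed, no account is given in the sources used here, and whether sequence differs between the genotypes at any of the 8 genes was not tested. The 8 genes have unrelated roles: Ahcy is a methionine cycle enzyme, Phf20 a chromatin protein, Sox12 a transcription factor, Cd28 a costimulatory receptor of T cells, Cda a nucleotide salvage enzyme and Ehd4 an endocytic protein. Ankrd36 encodes an ankyrin repeat protein. LOC102640133, called Gm19378 by RefSeq, is classed as a long noncoding RNA.

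The 250 bases upstream of the start are printed for a pair of genes whose knockout level lay near that of floxed muscle, LOC102640133 (chr15:89767365-89767614, plus strand) and Ahcy (chr2:155074498-155074747, minus strand), and for a pair whose knockout level lay near that of Cre muscle, Ankrd36 (chr11:5569434-5569683, plus strand) and Ehd4 (chr2:120154576-120154825, minus strand). They are RefSeq reference sequences of build GRCm38.p6, read 5′ to 3′, not sequences of the mice studied. The Ankrd36 window ends at 5569683, just past the gene start of 5569680 given below, so it is not wholly upstream of that start. Capitals mark the GC box (GGGCGG), the TATA box (TATAAA) and the CCAAT box (CCAAT) on either strand.
LOC102640133: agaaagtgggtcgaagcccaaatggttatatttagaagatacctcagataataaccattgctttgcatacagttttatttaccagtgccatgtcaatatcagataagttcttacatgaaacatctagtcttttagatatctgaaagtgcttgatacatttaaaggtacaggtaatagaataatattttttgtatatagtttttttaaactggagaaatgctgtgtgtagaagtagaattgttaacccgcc
Ahcy: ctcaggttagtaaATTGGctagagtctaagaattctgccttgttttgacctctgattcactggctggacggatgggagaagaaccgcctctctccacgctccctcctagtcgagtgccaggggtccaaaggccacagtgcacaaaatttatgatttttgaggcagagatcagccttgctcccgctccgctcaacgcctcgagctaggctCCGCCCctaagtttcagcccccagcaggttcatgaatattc
Ankrd36: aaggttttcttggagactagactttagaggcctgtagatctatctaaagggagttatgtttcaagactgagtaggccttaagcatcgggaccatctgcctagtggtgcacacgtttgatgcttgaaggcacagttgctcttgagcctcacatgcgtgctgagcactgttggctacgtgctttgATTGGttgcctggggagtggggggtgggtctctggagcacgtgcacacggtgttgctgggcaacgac
Ehd4: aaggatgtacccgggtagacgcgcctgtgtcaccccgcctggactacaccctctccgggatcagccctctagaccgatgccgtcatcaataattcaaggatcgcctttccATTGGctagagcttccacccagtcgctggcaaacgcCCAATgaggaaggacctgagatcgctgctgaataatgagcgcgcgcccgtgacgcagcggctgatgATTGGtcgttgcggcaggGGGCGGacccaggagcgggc
The LOC102640133 window held none of these motifs, had a GC content of 32.0% and contained 2 CpG sites, against a median of 52.4% and 6 over all 32851 windows of this length. Ahcy had 1 GC box and 1 CCAAT box, Ankrd36 had 1 CCAAT box, and Ehd4 had 1 GC box and 3 CCAAT boxes. Of all windows, 32.7% held a GC box, 33.8% a CCAAT box and 12.4% a TATA box. These are matches of letters only. Windows were matched for 7 of the 8 genes, Cd28 being the one without.

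Library totals ran from 24901936 to 31440196 counts. Values are counts scaled to library size (CPM). Acta1, the gene whose promoter drives Cre, marked the tissue as skeletal muscle and had 13100 to 18300 CPM in the 12 control libraries and 13600 to 17800 CPM in the 6 knockout libraries. Pofut1, the targeted gene, had 9.3, 9.6 and 9.61 CPM in young knockout and 10.5 and 10.6 CPM in old knockout libraries 45 and 17. The library labelled old knockout 40 had 16.3 CPM of Pofut1, inside the control range of 12.7 to 19.6 CPM, so results that rest on it are also given without it. Xist, which is transcribed from the inactive X chromosome, was high in 3 of 9 young and 6 of 9 old libraries, at 260 to 335 CPM against 0.893 to 1.52 CPM in the others.

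In the fit across all genes (edgeR's quasi-likelihood test, Benjamini-Hochberg adjusted p under 0.05), 0.131% of genes were called between Cre and floxed controls, ages averaged, and 7 of the 8 genes were among those 20. Since this contrast chose them, nothing is read from that count. When genes were ordered by p, Ankrd36 held place 14, and Ehd4, at the edge of the threshold, held place 21, just outside the calls. LOC102640133, Phf20, Sox12 and Cd28 were lower in Cre than in floxed muscle, and Ahcy, Ankrd36, Cda and Ehd4 were higher.

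The knockout libraries did not side with 1 control throughout. On the log2 scale, with floxed muscle at 0% and Cre muscle at 100%, fitted knockout levels lay at 1.8% for Ahcy, 9.3% for LOC102640133, 18.3% for Phf20 and 40.4% for Sox12. They lay at 69.1% for Cda, 90.7% for Ankrd36, 91.5% for Ehd4 and 92.9% for Cd28. Ahcy and Phf20, close to Pofut1 on chromosome 2, and LOC102640133 of chromosome 15 thus lay on the floxed side. Sox12, also close to Pofut1, lay near the middle. Ehd4, on chromosome 2 but 33.1 Mb from Pofut1, Cd28 of chromosome 1 and Ankrd36 of chromosome 11 lay on the Cre side. Cda of chromosome 4 lay between the middle and Cre muscle. Its knockout was off the midpoint by 0.41 (SE 0.276), with 2 of 6 knockout libraries in the floxed range. The difference of the knockout from the midpoint of both controls is a separate contrast in the fit, and it is tested below. Where the knockout lies with 1 control, the size of this difference follows from the gap between the controls that chose the gene. The test then asks only whether the knockout lay off the midpoint, and it is no evidence of an effect of Pofut1 loss. The knockout levels were known from earlier work on these data when the genes were listed. Differences of the knockout from each control alone share the control libraries that chose the genes and are given as values only.

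**Figure D1:**
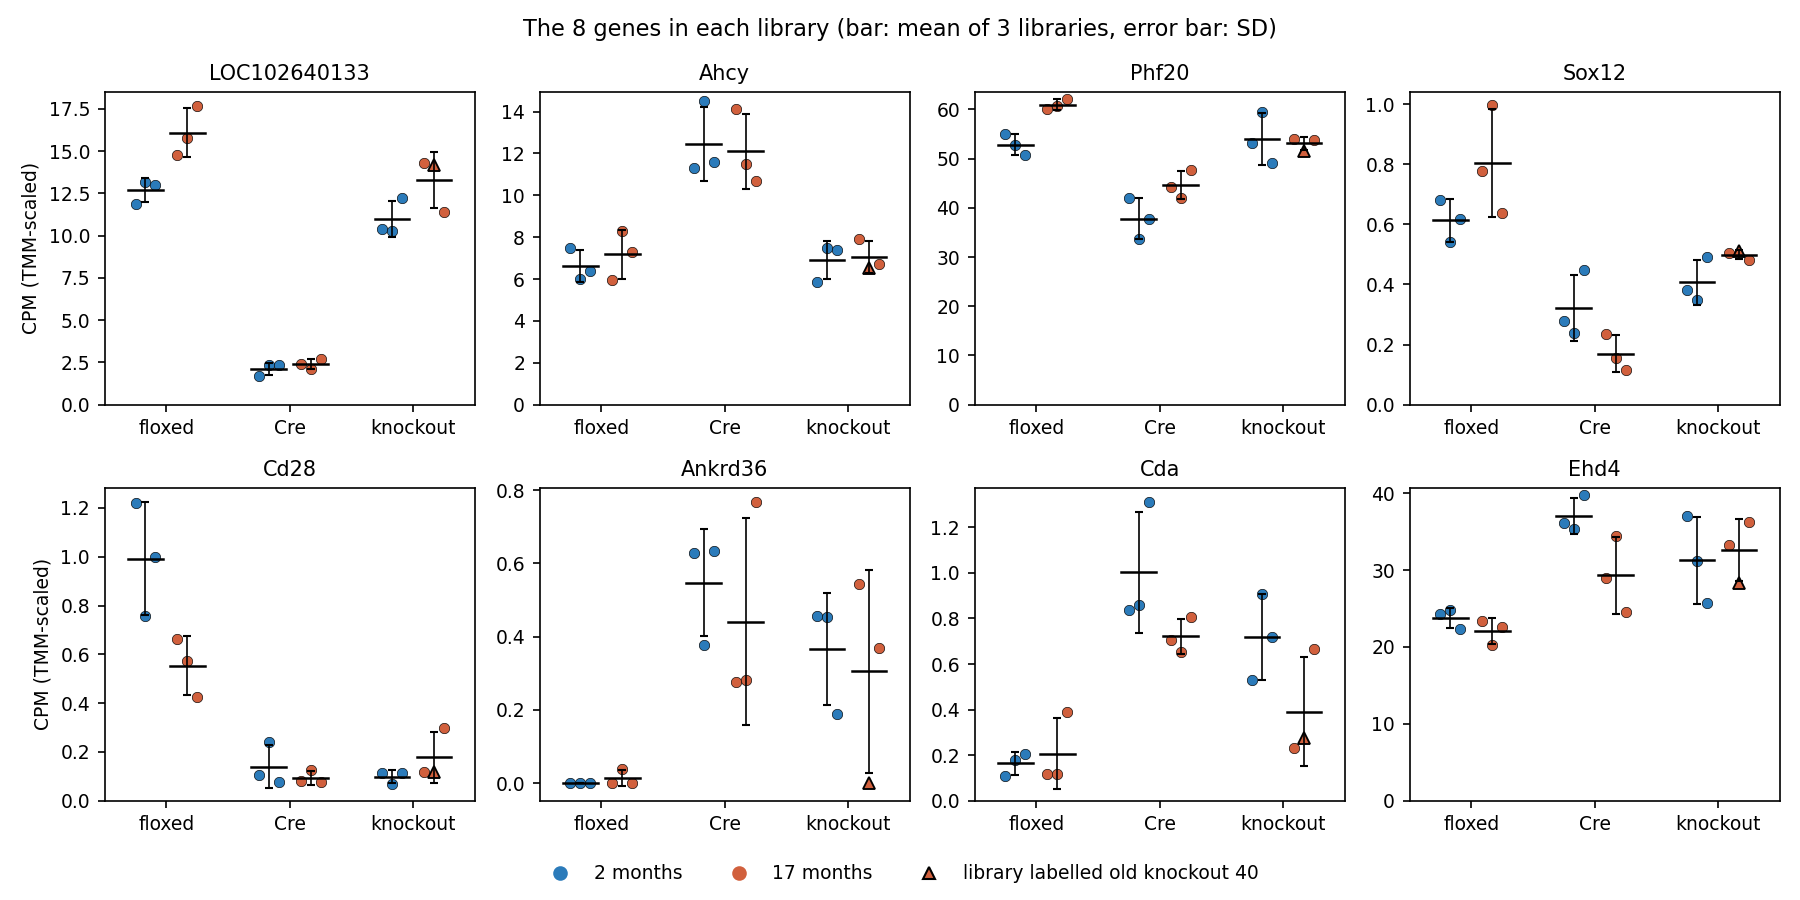
CPM of each of the 8 genes (vertical axes, linear) in the 18 libraries by genotype and age, with bars for the mean of 3 libraries and error bars for the SD. The library labelled old knockout 40 is drawn as a triangle, and knockout points for LOC102640133 lie between 10.3 and 14.3 CPM, all above the Cre controls.

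LOC102640133 (Entrez 102640133; chr15:89767615-89769242) had the widest gap between knockout and Cre muscle, relative to its standard error, among the 8 genes. Floxed libraries had 11.9, 13.2 and 13.0 CPM when young (32, 57 and 92) and 14.8, 15.8 and 17.7 CPM when old (5, 46 and 48). Cre libraries had 1.71, 2.33 and 2.35 CPM when young (61, 93 and 94) and 2.4, 2.12 and 2.69 CPM when old (34, 35 and 99). Knockout libraries had 10.4, 10.3 and 12.2 CPM when young (80, 82 and 83) and 14.3, 14.2 and 11.4 CPM when old (17, 40 and 45). All 6 knockout values stood above all Cre values, 3 of them inside the floxed range and 3 just below it. The log2 difference of Cre from floxed muscle was -2.66 (SE 0.104), that of knockout from floxed -0.25 (SE 0.094) and that of knockout from Cre 2.41 (SE 0.104). Knockout against the average of both controls gave a log2 difference of 1.08 (SE 0.081, edgeR adjusted p = 7.06e-06), at 12.1 ± 1.77 CPM (SD, n = 6) beside 14.4 ± 2.13 CPM in floxed and 2.27 ± 0.326 CPM in Cre controls (n = 6 each). It passed in each of 23 alternative analyses, with log2 differences of 1.05 to 1.13 and an adjusted p between 4.16e-28 and 7.11e-05. The alternative without a filter is the main fit again, since the filter removed 0 genes. As the knockout lay near floxed muscle, the size of this difference follows from the gap between the controls that chose the gene. These p-values are therefore no evidence of an effect of Pofut1 loss.

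It was the 1 gene of the 8 that passed in that comparison, in which 0.545% of all genes were called. Without the library labelled old knockout 40, 2 of the 8 passed, LOC102640133 and Ankrd36, beside 2.99% of all genes. With DESeq2, which called 4.5% of all genes, 2 of the 4 that the tool gave an adjusted p passed, LOC102640133 and Ahcy.

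Ahcy (Entrez 269378; chr2:155059310-155074497, 1.79 Mb from Pofut1) encodes S-adenosylhomocysteine hydrolase, which clears the by-product of methylation reactions. Floxed libraries had 7.49, 6.01 and 6.4 CPM when young and 5.96, 8.31 and 7.29 CPM when old. Cre libraries had 11.3, 14.5 and 11.6 CPM when young and 14.1, 11.5 and 10.7 CPM when old. Knockout libraries had 5.85, 7.46 and 7.37 CPM when young and 7.93, 6.55 and 6.7 CPM when old. The knockout lay within the floxed range in 5 of 6 libraries and just below it in young knockout 80, and no floxed or knockout library reached the Cre range. Cre differed from floxed muscle by 0.83 on the log2 scale (SE 0.112), and knockout from floxed by 0.01 (SE 0.113). Knockout lay below the average of both controls by a log2 difference of -0.40 (SE 0.099) that missed the threshold (edgeR adjusted p = 0.0674). It passed with DESeq2 (adjusted p = 0.0135), without old floxed 5 (0.0317) and without old Cre 34 (0.0465), and over all alternatives the adjusted p ran up to 0.177.

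The Ahcy counts are uncertain in 1 respect. Transcripts of 4 other GENCODE M21 genes matched Ahcy at 90% identity or more over at least 200 bases, the closest being Gm4737 at 99.7% over 2083 bases, and none of the 4 is a row of the count table. The antisense gene Gm45609 overlaps Ahcy too. How reads with several matches were counted, and whether strand was used, is not given in the sources used here.

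Phf20 (Entrez 228829; chr2:156196647-156309953, 2.93 Mb from Pofut1) encodes a reader of methylated lysine in the NSL histone acetyltransferase complex. Floxed libraries had 55.0, 52.8 and 50.7 CPM when young and 60.0, 60.7 and 62.1 CPM when old. Cre libraries had 42.0, 33.7 and 37.7 CPM when young and 44.2, 41.9 and 47.6 CPM when old. Knockout libraries had 53.2, 59.5 and 49.0 CPM when young and 54.0, 51.5 and 53.7 CPM when old. The control ranges did not overlap, and 5 of 6 knockout libraries lay within the floxed range, young knockout 83 falling between the ranges. Cre differed from floxed muscle by -0.47 on the log2 scale (SE 0.065) and knockout from floxed by -0.09 (SE 0.065). Knockout against the average of both controls was 0.15 (SE 0.056, edgeR adjusted p = 0.159). A processed copy, Phf20-ps, matched Phf20 at 95.2% over 1652 bases, so reads may be shared here as well.

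Sox12 (Entrez 20667; chr2:152393611-152398046, 0.843 Mb from Pofut1) encodes a transcription factor of the SoxC group and was scarce, with 3 to 26 counts per library. Floxed libraries had 0.681, 0.54 and 0.619 CPM when young and 0.779, 0.996 and 0.637 CPM when old. Cre libraries had 0.28, 0.24 and 0.448 CPM when young and 0.236, 0.156 and 0.115 CPM when old. Knockout libraries had 0.38, 0.348 and 0.492 CPM when young and 0.505, 0.51 and 0.481 CPM when old. The control ranges did not overlap, and the knockout stood between them in 4 libraries and in the upper Cre range in 2, young knockout 80 and 82. Cre differed from floxed muscle by -1.57 on the log2 scale (SE 0.229), and by -0.92 (SE 0.31) in young and -2.23 (SE 0.334) in old muscle. Knockout against the average of both controls was 0.15 (SE 0.19, edgeR adjusted p = 0.703), which places it near the middle.

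Cd28 (Entrez 12487; chr1:60746388-60773359) encodes the costimulatory receptor of T cells. Floxed libraries had 1.22, 0.756 and 0.998 CPM when young and 0.662, 0.574 and 0.425 CPM when old. Cre libraries had 0.105, 0.24 and 0.0747 CPM when young and 0.0786, 0.125 and 0.0767 CPM when old. Knockout libraries had 0.114, 0.0697 and 0.113 CPM when young and 0.117, 0.118 and 0.296 CPM when old. All floxed libraries stood above all Cre and knockout libraries. In counts this was 128 in the 6 floxed, 20 in the 6 Cre and 22 in the 6 knockout libraries, and the knockout to Cre ratio of scaled counts was 1.16 (95% interval 0.603 to 2.24, exact and covering counting error only). Knockout against the average of both controls was -1.13 (SE 0.319, edgeR adjusted p = 0.0852), with adjusted p from 0.0614 to 0.206 in the alternatives.

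In whole muscle fewer T cells and less Cd28 RNA per T cell cannot be told apart. Of 10 T cell markers listed, Cd3g and Cd247 were measured, and the other 8 are not rows of the count table. Their summed level was 1.49 to 3.02 CPM in floxed, 1.53 to 4.01 CPM in Cre and 1.82 to 5.1 CPM in knockout libraries, so all 3 ranges overlapped. Most of each sum was Cd247, with 32 to 123 counts per library against 0 to 34 for Cd3g. Between Cre and floxed muscle these markers went opposite ways. Cd3g, a subunit of the T cell receptor complex, differed by -1.41 (SE 0.708, edgeR adjusted p = 0.728), the direction of Cd28. It was at 0 counts in young Cre 94 and old Cre 99. Cd247, another subunit, differed by 0.43 (SE 0.281, adjusted p = 0.762) between Cre and floxed muscle. In knockout muscle Cd28 stood near its Cre level, while both markers had their highest means there. Cd3g was 0.471 ± 0.454 CPM in knockout, 0.288 ± 0.217 CPM in floxed and 0.107 ± 0.121 CPM in Cre muscle (SD). Cd247 was 2.57 ± 1.16 CPM in knockout, 1.88 ± 0.641 CPM in floxed and 2.51 ± 0.973 CPM in Cre muscle. The part of T cell number in the Cd28 difference was not tested.

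**Figure D2:**
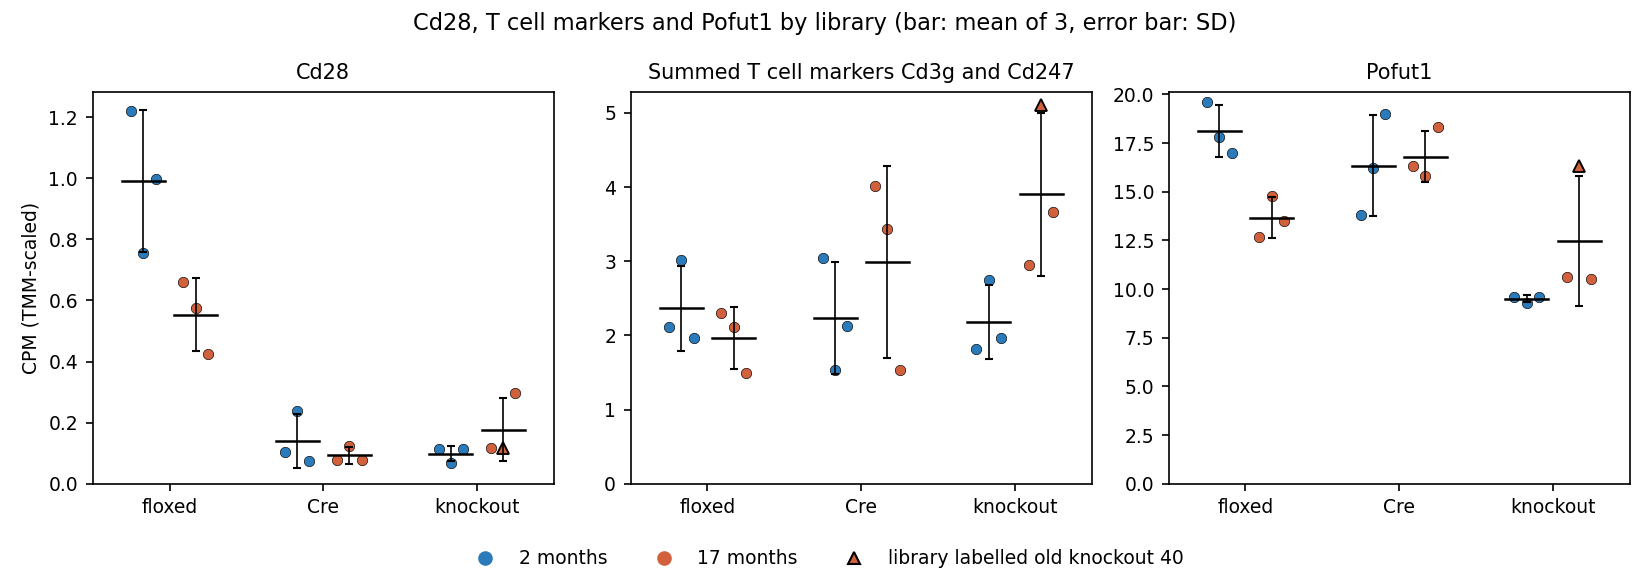
CPM (linear axes) of Cd28, of the sum of the T cell markers Cd3g and Cd247 and of Pofut1 in each library by genotype and age, with mean bars of 3 libraries and SD error bars. Cd28 in floxed libraries stays at or above 0.425 CPM and apart from the rest. The marker sums, mostly Cd247, overlap, and the library labelled old knockout 40 (triangle) has 16.3 CPM of Pofut1.

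Ankrd36 (Entrez 76389; chr11:5569680-5689617) was almost without reads in floxed muscle. Its floxed libraries held 1 count in all, in old floxed 46 (0.0383 CPM), and the other 5 were at 0. Cre libraries had 0.629, 0.378 and 0.635 CPM when young and 0.275, 0.281 and 0.767 CPM when old, 82 counts in all. Knockout libraries had 0.456, 0.453 and 0.189 CPM when young and 0.544, 0.0 and 0.37 CPM when old, 54 counts in all. The 0 belonged to the library labelled old knockout 40, and the other 5 knockout libraries lay above every floxed library. The ratio of scaled counts was 80.4 for Cre over floxed muscle (95% interval 14 to 3210) and 55.7 for knockout over floxed (9.58 to 2240). For knockout over Cre muscle it was 0.693 (0.482 to 0.989), all intervals covering counting error only. This ratio includes the library labelled old knockout 40, and no interval was computed without that library. The other old knockout libraries averaged 0.457 CPM (n = 2), beside 0.441 CPM in old Cre muscle (n = 3). Young knockout muscle averaged 0.366 CPM, beside 0.547 CPM in young Cre muscle (n = 3 each). The fitted log2 difference of knockout from Cre was -0.54 (SE 0.503). The position of 90.7% on the log2 scale rests on a floxed level of 1 count, and it includes the library labelled old knockout 40. Knockout against the average of both controls was 2.36 on the log2 scale (SE 0.667, edgeR adjusted p = 0.0879), and 2.65 without the library labelled old knockout 40 (adjusted p = 0.0209). Over all alternatives the adjusted p was 0.0209 to 0.193. The processed pseudogenes Gm11964 and Gm11965 lie within the gene.

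Cda (chr4:138338528-138368311) encodes cytidine deaminase, which converts cytidine to uridine in pyrimidine salvage. Floxed libraries had 0.108, 0.18 and 0.206 CPM when young and 0.117, 0.115 and 0.389 CPM when old. Cre libraries had 0.839, 0.858 and 1.31 CPM when young and 0.707, 0.655 and 0.806 CPM when old. Knockout libraries had 0.532, 0.906 and 0.718 CPM when young and 0.233, 0.274 and 0.666 CPM when old. The young knockout stood in or just below the Cre range. Old knockout 45 was in the Cre range, while old knockout 17 and the library labelled old knockout 40 were in the floxed range. Cre differed from floxed muscle by 2.16 on the log2 scale (SE 0.336), and knockout from the average of both controls by 0.41 (SE 0.276, edgeR adjusted p = 0.4).

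Ehd4 (chr2:120089487-120154575) encodes an ATPase with an EH domain that acts in endocytic recycling. Floxed libraries had 24.3, 24.8 and 22.3 CPM when young and 23.4, 20.2 and 22.6 CPM when old. Cre libraries had 36.1, 35.3 and 39.7 CPM when young and 29.0, 34.4 and 24.5 CPM when old. Knockout libraries had 37.0, 31.2 and 25.7 CPM when young and 33.3, 28.3 and 36.3 CPM when old. All 6 knockout values were above all floxed values and inside the Cre range. Ehd4 was the 1 gene of the 8 whose control ranges overlapped, through old Cre 99. Cre differed from floxed muscle by 0.52 on the log2 scale (SE 0.098), knockout from floxed by 0.48 (SE 0.098) and knockout from Cre by -0.04 (SE 0.098). Against the average of both controls the knockout was at 0.22 (SE 0.084, edgeR adjusted p = 0.166).

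The library labelled old knockout 40 had 5 of the 8 genes in the floxed range, the most of any knockout library, 2 in the Cre range (Cd28 and Ehd4) and Sox12 between. Its mates old knockout 17 and 45 had 4 and 2 in the floxed range, and the young knockout libraries had 1 or 2. Its Cd28 level of 0.118 CPM and its Ehd4 level of 28.3 CPM lay outside the floxed ranges. Its Pofut1, Ankrd36 and Cda levels lay inside the floxed ranges of both ages together. Among old libraries alone, its Pofut1 of 16.3 CPM was above the floxed range (12.7 to 14.8 CPM). It was inside the old Cre range (15.8 to 18.3 CPM).

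**Figure D3:**
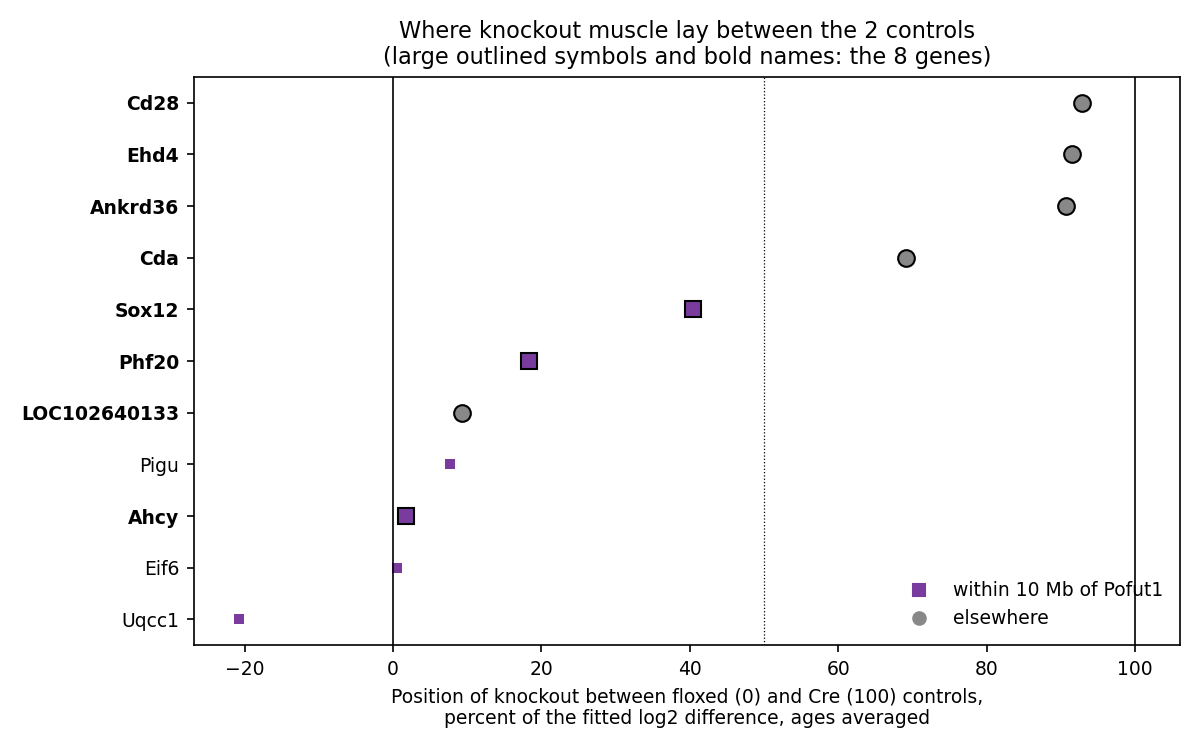
Position of the knockout between floxed (0) and Cre (100) controls, in percent of the fitted log2 difference with ages averaged, for the 8 genes (large outlined symbols) and the 3 other genes called within 10 Mb of Pofut1. Squares are genes within 10 Mb of Pofut1, from -20.8% for Uqcc1 to 40.4% for Sox12.

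Around Pofut1, 6 of 164 genes within 10 Mb (3.66%) were called between Cre and floxed controls, beside 13 of 13562 (0.0959%) on other chromosomes. Leaving out the 8 genes, 3 of 161 were called, beside 9 of 13558. The 6 genes were Ahcy, Phf20 and Sox12, and outside the 8 Pigu, Eif6 and Uqcc1, which lie 2.01, 2.55 and 2.58 Mb away. Pigu, a subunit of the GPI transamidase, had 13.3 to 19.1 CPM in floxed (median 16.1), 10.3 to 12.5 CPM in Cre (median 11) and 13.8 to 17.5 CPM in knockout libraries (median 15.8). Its log2 difference of Cre from floxed muscle was -0.54 (SE 0.091, edgeR adjusted p = 0.0279). Eif6, a factor of ribosome assembly, differed by -0.53 (SE 0.097, adjusted p = 0.04), with 9.93 to 13.7 CPM in floxed, 6.36 to 9.03 CPM in Cre and 10.3 to 13.2 CPM in knockout libraries. Uqcc1, an assembly factor of respiratory complex III, differed by 0.52 (SE 0.093, adjusted p = 0.04), with 71.5 to 81.9 CPM in floxed, 90.4 to 134.0 CPM in Cre and 62.1 to 84.4 CPM in knockout libraries. In each of these 3 the control ranges did not overlap and no knockout library reached the Cre range.

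Of the 6 genes called near Pofut1, 5 had the knockout at -20.8% to 18.3% of the way from floxed to Cre muscle, and Sox12, at 40.4%, was within its error of the middle. By fitted values alone, of the other 14 genes called, which lie on other chromosomes or have no place in the annotation, 3 had it nearer to floxed muscle, LOC102640133 among them, and 11 nearer to Cre muscle. The whole set was chosen by the contrast that sets the end points, so these positions are a description. Against the average of both controls Pigu was at 0.23 (SE 0.078, edgeR adjusted p = 0.133), Eif6 at 0.26 (SE 0.083, adjusted p = 0.106) and Uqcc1 at -0.37 (SE 0.082, adjusted p = 0.0528), none of which passed.

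Genes with small p-values between the controls were also counted by their distance from Pofut1, with no test between distances. Leaving out the 8 genes, an unadjusted p under 0.01 was found for 0 of 28 genes within 1 Mb of Pofut1 (1 of 29 with Sox12), 10 of 91 (11%) from 1 to 5 Mb and 1 of 42 (2.38%) from 5 to 10 Mb, against 211 of 13558 (1.56%) on other chromosomes. Pofut1 itself differed by 0.07 between Cre and floxed muscle (SE 0.108, edgeR adjusted p = 0.908). Around the genes away from Pofut1 the same count was 0 of 63 within 5 Mb of Cd28, 0 of 78 within 5 Mb of Ankrd36, 0 of 59 within 5 Mb of LOC102640133, 1 of 122 within 5 Mb of Cda and 3 of 88 within 5 Mb of Ehd4.

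Of the 32 measured genes that lie next to the 8, 2 on each side, 0 passed between the controls with edgeR and 0 with DESeq2, and 3 had an unadjusted p under 0.05, beside 6.65% of all genes. These were Raly and Dynlrb1 beside Ahcy and Mul1 beside Cda. Their log2 differences ran from -0.29 to 0.24. Raly, an RNA-binding protein, was at 0.20 (SE 0.063, adjusted p = 0.513) and Dynlrb1, a dynein light chain, at -0.29 (SE 0.105, adjusted p = 0.622).

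**Figure D4:**
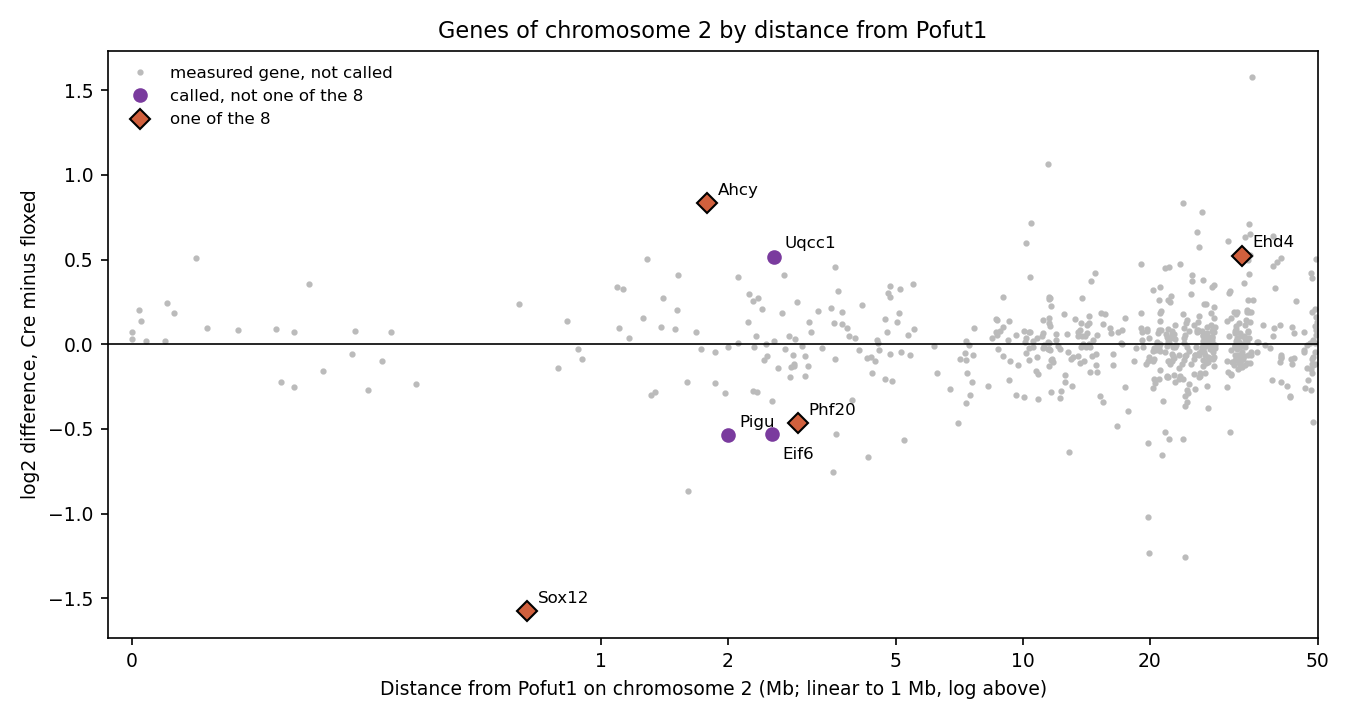
Log2 difference of Cre from floxed muscle (vertical axis) for genes of chromosome 2 by distance from Pofut1 in Mb, linear to 1 Mb and logarithmic above, up to 50 Mb. Of the 6 genes called, Ahcy and Uqcc1 lie above 0 and Pigu, Eif6, Phf20 and Sox12 below, and Ehd4 lies 33.1 Mb away at 0.52.

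By the highest Pearson correlation of log2 CPM over the 18 libraries, the genes most like LOC102640133 were BC029722 (r = 0.92), Eif6 (0.88) and Phf20 (0.86). LOC102640133 is placed on chromosome 15, while those 3 genes are on chromosome 2, at 2.55, 2.55 and 2.93 Mb from Pofut1. BC029722 is a noncoding gene beside Eif6. For Ahcy the most alike were Uqcc1 (0.80), Ndrg3 (0.79) and Maats1 (0.77), and for Sox12 LOC102640133 (0.81), Pigu (0.74) and Eif6 (0.72). Maats1 lies on chromosome 16. Phf20 was most like LOC102640133 (0.86), Gm16439 of chromosome 14 (0.81) and Gm35555 (0.80), which has no place in the annotation. These correlations share the control libraries that chose the genes and all 18 points share the scaling, so they are descriptions.

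Ankrd36, Cda, Cd28 and Ehd4 had other partners, and none of those with a place in the annotation lies on chromosome 2. The same held for the partners of Phf20, so this does not set these genes apart from those near Pofut1. The genes most like Ankrd36 included Ak7 (0.91) and LOC105244148 (0.90), of which the second has no place there. Cda was most like Mfhas1 (0.84), Hexim2 (0.81) and Ankrd36 (0.80). Cd28 was most like Zfp558 (0.79), Dennd6a (0.75) and Gm32584 (0.75), and Ehd4 most like Iffo1 (0.87), Isyna1 (0.86) and Msto1 (0.84).

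Old against young muscle over both controls gave 1 call among the 8, Phf20, which is no result about the set, since 18.1% of all genes were called. Phf20 was 52.8 ± 2.14 CPM in young and 60.9 ± 1.06 CPM in old floxed muscle, and 37.8 ± 4.17 CPM in young and 44.6 ± 2.89 CPM in old Cre muscle (n = 3 each), a log2 difference of 0.22 (SE 0.065, edgeR adjusted p = 0.0286). Old libraries also held high Xist more often, and the call ended with Xist as a covariate (0.21 on the log2 scale, adjusted p = 0.055). It ended too without young floxed 57 or 92, old floxed 46 or 48, young Cre 93 or old Cre 99, with adjusted p of 0.0581 to 0.0751.

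In the knockout, where 1.09% of all genes were called between the ages, 0 of the 8 passed with edgeR, 0 with DESeq2 and 0 had an unadjusted p under 0.05. Phf20 was 53.9 ± 5.25 CPM in young and 53.0 ± 1.37 CPM in old knockout muscle (n = 3 each; log2 -0.02, SE 0.092, edgeR adjusted p = 0.944). The change of Phf20 with age differed between knockout and controls by -0.24 (SE 0.113, adjusted p = 0.439), which did not pass. Cd28 had the smallest adjusted p for such a difference among the 8, 1.52 on the log2 scale (SE 0.637, adjusted p = 0.414): it was lower in old than in young controls (-0.69, SE 0.333, adjusted p = 0.162) and at 0.83 (SE 0.543, adjusted p = 0.563) in the knockout. For that test of the difference 0% of all genes were called.

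Genes known to act in the same pathways were counted in lists beside all genes. In lists for the methionine cycle, the NSL complex, the SOX family, T cell costimulation, pyrimidine salvage, endocytic recycling and the O-fucose and Notch pathway, 0 of 110 measured genes were called between Cre and floxed muscle with edgeR and 0 with DESeq2, where 0.131% and 0.322% of all genes were called. An unadjusted p under 0.05 was found for 5 of the 110, beside 6.65% of all genes, so these counts say nothing particular to the lists. Their median log2 difference was 0.01, beside 0.00 over all genes. In the methionine cycle list, 0 of 22 passed, and Dnmt1, the maintenance DNA methyltransferase, was at 0.28 (SE 0.095, adjusted p = 0.585). In the SOX list 0 of 11 passed, and Sox11, another SoxC factor, was at 1.23 (SE 0.738, adjusted p = 0.745).

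Between knockout and both controls, 0 of these 110 genes passed with edgeR and 5 with DESeq2, where 0.545% and 4.5% of all genes passed. An unadjusted p under 0.05 was found for 26 of them, beside 21.2% of all genes, with a median log2 difference of 0.05 beside 0.02 over all genes. Of 38 markers of muscle fibres and of 9 other cell types, 0 were called between the controls with either tool, and 1 had an unadjusted p under 0.05, beside the same 6.65% of all genes. Between knockout and both controls 0 of the 38 were called with either tool, and 6 had an unadjusted p under 0.05, beside the same 21.2% of all genes. The summed level of the 7 fibre markers was 259000 to 404000 CPM in floxed, 314000 to 455000 CPM in Cre and 340000 to 419000 CPM in knockout libraries, so these ranges overlapped.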

How the data were processed

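RNA of 18 quadriceps samples was sequenced from rRNA-depleted libraries made with ScriptSeq v2, per the labels' protocols. The submitters' processing notes name STAR, HTSeq and DESeq2 and the builds GRCm38.p4 and, for a mouse study, also GRCh38.p5, for which no version, option, counting strand or role is given in the sources used here. Columns of counts deposited by the authors are raw counts per gene for 15224 genes, and no gene has a total below 67. The authors' normalized signal columns hold counts over a size factor for each library, and their deposited log2 fold changes and deposited p-value columns come from comparisons of 2 groups. None of these was used in a test here.

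Counts were fitted by the quasi-likelihood test of edgeR 4.0.16 (limma 3.58.1, R 4.3.3), with 1 mean for each of 6 groups, 12 residual degrees of freedom and TMM factors of 0.91 to 1.07. The p-values were adjusted over all 15224 genes, and filterByExpr at a minimum count of 10 removed 0. The dispersion corresponded to a biological coefficient of variation of 20.1%. A gene is called at an adjusted p under 0.05. The standard error is the log2 difference divided by the square root of F. The code was tested on simulated data. Positions come from RefSeq GRCm38.p6 by Entrez number (14726 of 15224 genes placed), overlaps and transcripts from GENCODE M21, and near copies from blastn 2.17.0+. No transcript of LOC102640133 was found there under its RefSeq symbol, so its near copies were not searched.

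The 8 genes, the gene lists and the tests were chosen with earlier results of these data known. Named genes are the 8, Pofut1, Acta1 and Xist, the 2 nearest measured genes on each side, the 3 most correlated genes, up to 4 per list by p, and called genes within 10 Mb of Pofut1, and 2 genes that the rule names are not reported here. Alternatives were DESeq2 1.42.0, RLE factors, no filter, a minimum mean of 1 CPM, the groups compared only, Xist as a covariate, and leaving out each library. Intervals cover counting error only, since reads without molecular identifiers are not independent molecules.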

Additional observations from a re-analysis of the deposited data

Results flagged for a closer look

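Of 27 sets of 6 libraries, 1 for each genotype for the 8 genes and Pofut1, 6 had 1 library whose gap to the nearest other exceeded Dixon's 95% critical share of the whole range. Chance flags about 1 in 20 such sets, and several of these genes rest on few counts. Pofut1 was 16.3 CPM in the library labelled old knockout 40, where the other 5 knockout libraries had 9.3 to 10.6 CPM. Cd28 was 0.24 CPM in young Cre 93 (7 counts), beside 0.0747 to 0.125 CPM in the other Cre libraries. Cd28 was also high in old knockout 45, at 0.296 CPM (8 counts), beside 0.0697 to 0.118 CPM in the other knockout libraries. Ankrd36 was 0.0383 CPM in old floxed 46, which is 1 count, with 0 in the other floxed libraries. Cda was 0.389 CPM in old floxed 48 (11 counts), beside 0.108 to 0.206 CPM, and 1.31 CPM in young Cre 94 (35 counts), beside 0.655 to 0.858 CPM. The control values among these did not close the gap between the floxed and Cre ranges, and the Cd28 level of old knockout 45 fell inside that gap.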

How the results depend on the processing

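No paired analysis was possible because the library numbers in the labels are not shared between groups. For the count of all genes called, knockout against both controls went from 83 to 685 with DESeq2, to 139 with Xist as a covariate, and to 1 to 594 with 1 library left out (1 without young knockout 80, 594 without old floxed 5, 455 without the library labelled old knockout 40). Cre against floxed went from 20 to 49 with DESeq2, to 10 with a minimum mean of 1 CPM and to 9 to 28 with 1 library left out. Old against young in both controls went from 2763 to between 1816 and 3064 with 1 library left out, and in the knockout from 166 to 497 with DESeq2, 11 with only the groups compared and 18 to 237 with 1 library left out. The cause of these shifts was not tested. In none of the alternatives that gave a value did a knockout or Cre log2 difference of the 8 genes change sign. For Sox12, Cd28, Ankrd36 and Cda no knockout difference was recorded with DESeq2, so its sign there is not known. Changes with age that missed the threshold changed sign in both controls for Ahcy (-0.027 to 0.097 with a library left out, -0.019 without old floxed 46), Ankrd36 (-0.162 to 1.028) and Cda (0 with Xist as a covariate, -0.48 to 0.079 with a library left out). In the knockout they did so for Ahcy (-0.069 to 0.1), Phf20 (-0.083 to 0.059), Ankrd36 (-0.945 to 0.31) and Ehd4 (-0.057 to 0.202). With only the groups compared, the knockout comparison holds all groups and is the same fit. The alternative without a filter is the same fit in every comparison, since filterByExpr removed 0 genes. Genes with under 1 CPM (Sox12, Cd28, Ankrd36 and Cda) rest on 128 or fewer counts in a genotype, Cda in Cre muscle excepted (144), and give no value in the alternative with that minimum.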
